A study of Homo sapiens with 6 samples.

Results

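DDIT4, the 3 sestrin genes SESN1, SESN2 and SESN3, TSC1, TSC2, DEPTOR and AKT1S1 encode proteins that hold back the kinase complex mTORC1. The 8 genes were taken by symbol from 23519 genes measured in all 6 libraries of the study, and all 8 were found. They were chosen by their normalised read counts and log2 changes in these same 6 libraries, so the members' levels and changes are given as a description. No p-value is given for them, and how many passed a threshold is stated only beside the share of all genes that did. The cells were SKM-1, an established line of human acute myeloid leukaemia that followed a myelodysplastic syndrome. Poly-A RNA was sequenced from 2 untreated libraries, 2 libraries treated with BOR, 1 treated with VEM and 1 treated with VEM+BOR. The series title names vemurafenib, a RAF kinase inhibitor, while the labels do not spell out BOR. The sources used here give neither dose nor time. No label says whether the libraries within a group came from different cultures, so p-values reflect library-to-library spread alone, and that spread may be technical.

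mTORC1 sits on the lysosome and drives protein synthesis and growth when amino acids, growth factors and energy are at hand. TSC1 and TSC2 form a complex that switches off RHEB, the small GTPase that activates mTORC1, and DDIT4, also called REDD1, works through that complex in hypoxia and other stress. Sestrins bind GATOR2 and so block the amino acid signal to the Rag GTPases, and SESN2 is a leucine sensor. DEPTOR and the AKT1S1 product PRAS40 bind the kinase complex itself. Transcription of DDIT4 is known to respond to ATF4, HIF, p53 and the glucocorticoid receptor, that of SESN2 to ATF4 and p53, and that of SESN1 and SESN3 to p53 and FOXO factors.

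The 250 bases before the RefSeq starts of DDIT4 and SESN2 are shown because the level of both genes was higher in the same 3 libraries. They are RefSeq sequences on GRCh38.p14, both on the plus strand, at chr10:72273674-72273923 for DDIT4 and chr1:28259268-28259517 for SESN2. Capitals mark every match, on either strand, to the hypoxia response core ACGTG, the C/EBP-ATF response element TGATGNAA, the CCAAT box CCAAT and the GC box GGGCGG.
DDIT4: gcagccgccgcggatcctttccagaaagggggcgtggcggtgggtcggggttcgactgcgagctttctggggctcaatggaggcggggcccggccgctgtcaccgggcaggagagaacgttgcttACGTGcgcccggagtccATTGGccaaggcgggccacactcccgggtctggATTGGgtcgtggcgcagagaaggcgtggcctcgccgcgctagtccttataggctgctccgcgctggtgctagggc
SESN2: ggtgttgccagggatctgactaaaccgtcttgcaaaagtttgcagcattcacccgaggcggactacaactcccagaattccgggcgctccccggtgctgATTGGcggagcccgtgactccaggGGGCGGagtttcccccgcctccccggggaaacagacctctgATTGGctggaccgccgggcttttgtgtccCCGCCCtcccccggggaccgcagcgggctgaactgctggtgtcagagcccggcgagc
The DDIT4 window held 1 hypoxia response core, whose first base lies 125 bases before the start, and 2 CCAAT boxes in reverse orientation. The SESN2 window held 2 CCAAT boxes and 2 GC boxes and no hypoxia response core. Of 35116 RefSeq windows of the same length, 18.5% held the hypoxia response core, 32.0% a CCAAT box, 42.6% a GC box and 3.14% the C/EBP-ATF response element. Among the windows of 6 members that could be matched, only the first of 2 TSC2 windows held the C/EBP-ATF response element, and it also held the E-box CACGTG, which overlaps 2 matches to the hypoxia response core there. A match is a run of letters and not a measured binding site.

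Libraries held 17252404 to 18507606 reads assigned to genes. BOR 2 stood apart from the other 5 libraries, BOR 1 included, and the members' values are therefore given for each BOR library. Its log2 differences from the untreated mean had an SD of 1.37 across genes, against 0.47 for BOR 1, 0.55 for VEM and 0.58 for VEM+BOR. In BOR 2 the 100 most abundant genes took 25.6% of reads, against 18.0% to 21.5% in the other libraries, and mitochondrial transcripts took 3.14%, against 4.23% to 5.40%. With protein-coding genes split into 4 groups by gene model length, those in the shortest group differed from untreated by a median log2 of 0.49 in BOR 2 and those in the longest by -0.37, while the same medians in BOR 1 were -0.05 and 0.15. Of 9 myeloid markers, all 9 were detected in every library, with a sum of 7977 to 8025 CPM (reads per 1000000 reads of the library) in untreated cells, 7995 in BOR 1, 6410 in BOR 2, 3993 in VEM and 3276 in VEM+BOR. The sum does not show how single markers moved. Their median log2 differences from untreated were 0.15 in BOR 1, 0.13 in BOR 2, -0.20 in VEM and -0.04 in VEM+BOR. Single markers ranged from -0.37 to 3.17 in BOR 1 and from -3.58 to 2.39 in BOR 2. In VEM they ranged from -1.52 to 0.11, and in VEM+BOR from -1.83 to 1.51. Of 12 markers of other cell types, 5 or 6 were detected, summing to 7.99 to 23.0 CPM, counting only genes found in all 3 comparisons. Taken singly, the BOR, VEM and VEM+BOR comparisons held 7, 6 and 8 of the 12. The part of these differences in the results below was not tested.

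DDIT4 was the member that moved most. Its normalised read count, which is the read count divided by 1 factor per library so that all 6 libraries share a scale, was 193 and 148 in the untreated libraries, 188 in BOR 1, 23294 in BOR 2, 1758 in VEM and 1238 in VEM+BOR. BOR 1 lay between the untreated libraries, and the other treated libraries lay above both of them. In raw reads these values were 217, 151, 203, 17231, 1907 and 1349. DDIT4 was the 153rd most abundant gene by CPM in BOR 2 and between 9690th and 10017th in the untreated libraries and BOR 1. BOR 2 exceeded BOR 1 by 124-fold on the shared scale and by 81.2-fold in CPM, and of 15462 genes compared only 11, DDIT4 included, differed as much or more in that direction. VEM exceeded the untreated libraries by 9.13-fold and 11.9-fold, and VEM+BOR by 6.43-fold and 8.36-fold. VEM+BOR stood at 0.704 of VEM, with 1 library on each side and no test, while untreated 1 was 1.30 times untreated 2. More cells that express a gene and more RNA of it per cell cannot be told apart in these bulk libraries.

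The fit across all genes gave DDIT4 a log2 change of 3.37 (SE 0.41) in VEM and 2.85 (SE 0.42) in VEM+BOR, both against the untreated pair. In BOR the change was 3.63 with an SE of 2.02, since the libraries disagreed. Without BOR 2 it was 0.16, and without BOR 1 it was 7.10. The authors' deposited table gives a log2 fold change of 6.11 for DDIT4 in BOR. DDIT4 (ENSG00000168209) spans 72273920 to 72276036 on chromosome 10, and no other gene of the tables overlaps it. Coordinates are those in the tables, which for all 8 members equal GENCODE 29 on GRCh38, and a value counts reads over the whole gene without regard to exon or isoform.

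**Figure D1:**
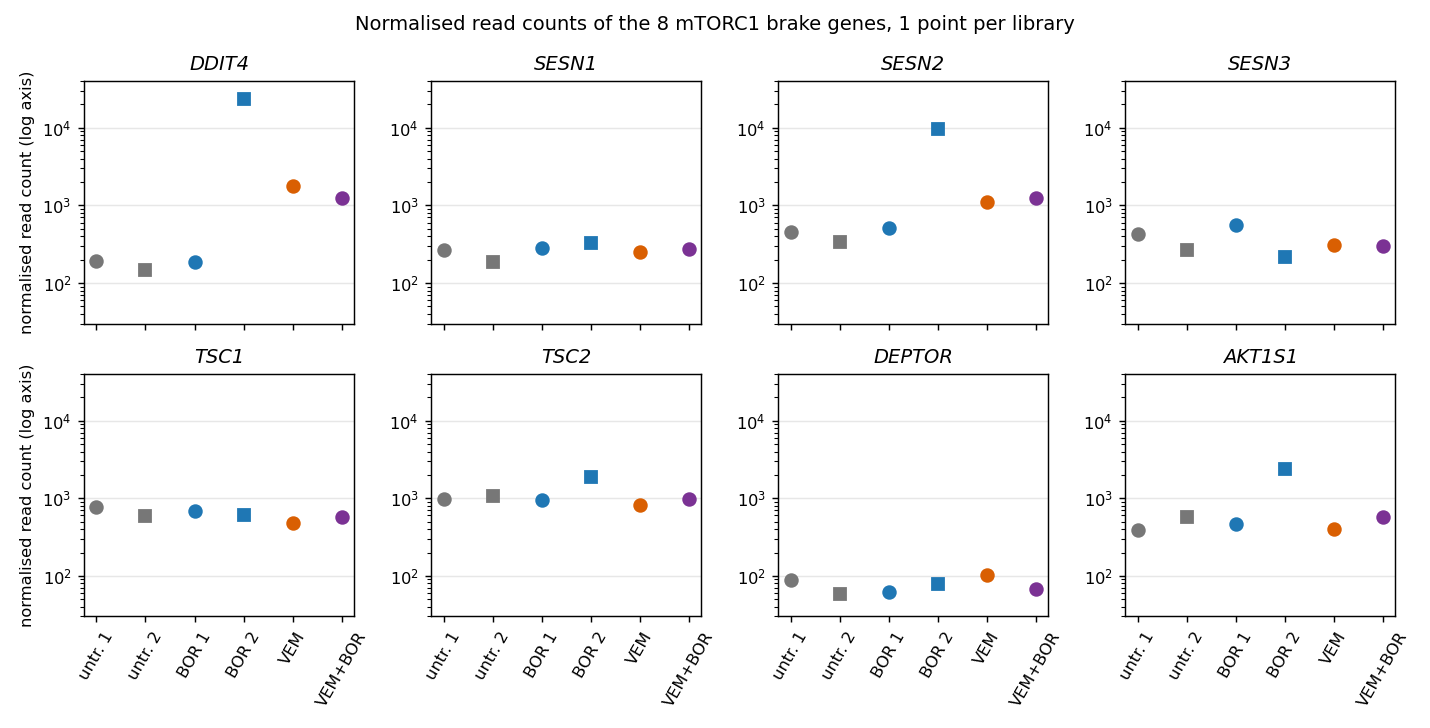
Normalised read count (log axis) of each of the 8 genes in the 6 libraries, 1 point per library and no error bars, since each point is a single library. DDIT4 and SESN2 are high in BOR 2, VEM and VEM+BOR, AKT1S1 is high in BOR 2, and the other 5 genes vary less.

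SESN2 was high in the same 3 libraries as DDIT4, over a smaller range. Its normalised read count was 461 and 334 in untreated cells, 513 in BOR 1, 9577 in BOR 2, 1105 in VEM and 1234 in VEM+BOR. All 4 treated libraries lay above both untreated libraries, with BOR 1 only 1.11-fold above untreated 1. BOR 2 was 18.7-fold above BOR 1 (12.2-fold in CPM), and on the shared scale 83 of 15462 genes differed as much or more. The log2 change was 1.48 (SE 0.39) in VEM, 1.64 (SE 0.39) in VEM+BOR and 2.50 (SE 1.28) in BOR, with 0.39 when BOR 2 was left out and 4.61 when BOR 1 was left out. VEM+BOR was 1.12 times VEM for SESN2, the opposite side of 1 from DDIT4, and both ratios rest on 1 library against 1. SESN2 (ENSG00000130766) spans 28259527 to 28282491 on chromosome 1.

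SESN1 and SESN3 did not follow SESN2. SESN1, known as a p53 and FOXO responsive sestrin, was 269 and 188 in untreated cells, 284 in BOR 1, 324 in BOR 2, 251 in VEM and 272 in VEM+BOR. In CPM BOR 2 fell between the untreated libraries for SESN1, at 13.0 against 17.4 and 10.6, so its place above them depends on the scaling. SESN3 was 425 and 264 in untreated cells, 567 in BOR 1, 214 in BOR 2, 310 in VEM and 300 in VEM+BOR. BOR 1 held the highest SESN3 value of the 6 libraries and BOR 2 the lowest. The log2 changes of SESN1 were 0.43 (SE 0.50) in BOR, 0.15 (SE 0.46) in VEM and 0.26 (SE 0.45) in VEM+BOR. Those of SESN3 were 0.06 (SE 0.64), -0.12 (SE 0.44) and -0.17 (SE 0.44) in the same order. SESN1 (ENSG00000080546) spans 108986437 to 109094819 on chromosome 6, and SESN3 (ENSG00000149212) spans 95165513 to 95232541 on chromosome 11, inside an antisense gene that was given 2 to 17 reads per library.

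The balance among the sestrins therefore differed between libraries. In RPKM (CPM per kilobase of gene model), SESN2 made up 59.0% and 61.1% of the summed sestrin level in untreated cells and 57.7% in BOR 1. It made up 80.4% in VEM, 81.4% in VEM+BOR and 97.1% in BOR 2. The summed sestrin level was 14.7 and 8.97 in untreated cells, 15.7 in BOR 1, 25.0 in VEM, 26.1 in VEM+BOR and 114 in BOR 2.

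**Figure D2:**
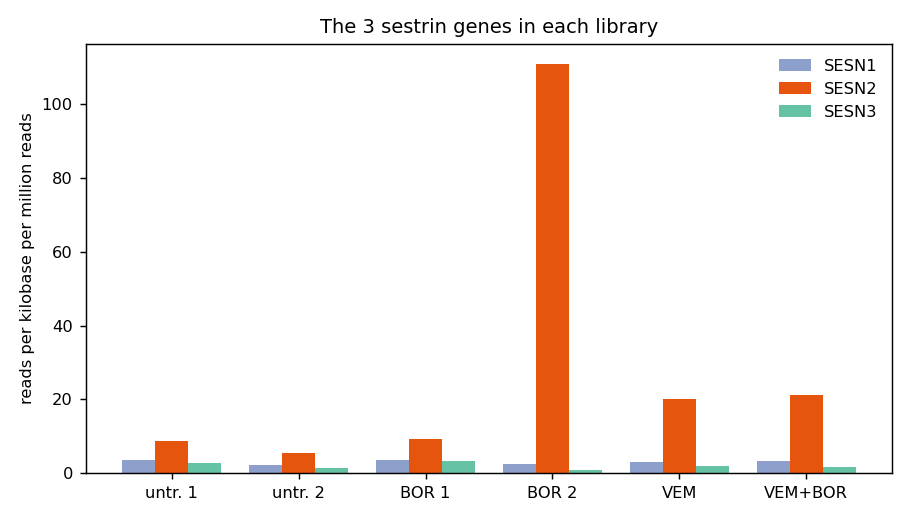
Level of the 3 sestrin genes in each library, in RPKM, with 1 bar per gene and library and no error bars. SESN2 rises to 20.1 in VEM, 21.2 in VEM+BOR and 111 in BOR 2, while SESN1 and SESN3 stay under 4 in every library.

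TSC1 and TSC2, the scaffold and the GTPase-activating subunit of the TSC complex, differed little. TSC1 was 772 and 589 in untreated cells, 678 in BOR 1, 612 in BOR 2, 481 in VEM and 574 in VEM+BOR, so that both libraries with VEM lay below both untreated libraries and both BOR libraries lay between them. In CPM the places differed, with TSC1 at 50.1 and 33.3 in untreated cells, 41.4 in BOR 1, 24.5 in BOR 2, 30.3 in VEM and 34.1 in VEM+BOR, so that BOR 2 was the lowest and VEM+BOR lay between the untreated libraries. TSC2 was 978 and 1064 in untreated cells, 959 in BOR 1, 1868 in BOR 2, 811 in VEM and 992 in VEM+BOR. BOR 2 was the 1 library well above the rest for TSC2, but in CPM it was 74.7 against 63.4 and 60.2. Log2 changes of TSC1 were -0.06 (SE 0.46) in BOR, -0.49 (SE 0.39) in VEM and -0.25 (SE 0.38) in VEM+BOR. For TSC2 they were 0.39 (SE 0.51), -0.34 (SE 0.37) and -0.05 (SE 0.37). TSC1 (ENSG00000165699) spans 132891348 to 132946874 on chromosome 9. TSC2 (ENSG00000103197) spans 2047465 to 2089487 on chromosome 16 and overlaps NTHL1 by 402 bases and PKD1 by 778 bases, both on the opposite strand. The library protocol names no step that marks strand, so reads in those stretches could come from either gene.

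DEPTOR, an inhibitor bound to both mTOR complexes, had the fewest reads of the 8 genes, between 58 and 110 per library. Its normalised read count was 88.8 and 58.8 in untreated cells, 62.0 in BOR 1, 78.4 in BOR 2, 101 in VEM and 67.9 in VEM+BOR. On the shared scale VEM alone lay outside the untreated range, while in CPM BOR 2 did too, at 3.13 against 5.76 and 3.33. The log2 changes of DEPTOR were -0.05 (SE 0.60) in BOR, 0.48 (SE 0.59) in VEM and -0.10 (SE 0.60) in VEM+BOR. DEPTOR (ENSG00000155792) spans 119873717 to 120050913 on chromosome 8. AKT1S1, whose product PRAS40 is released from mTORC1 after phosphorylation by AKT, was 393 and 580 in untreated cells, 460 in BOR 1, 2356 in BOR 2, 399 in VEM and 579 in VEM+BOR. BOR 2 stood 5.12-fold above BOR 1 for AKT1S1 (3.35-fold in CPM), and every other library lay within the untreated range on the shared scale. In CPM, VEM was 25.1 and VEM+BOR 34.4, both outside the untreated values of 25.5 and 32.8. The log2 changes were 1.13 (SE 0.82) in BOR, -0.05 without BOR 2 and 2.30 without BOR 1, with -0.26 (SE 0.41) in VEM and 0.26 (SE 0.40) in VEM+BOR. AKT1S1 (ENSG00000204673) spans 49869033 to 49878459 on chromosome 19 and overlaps TBC1D17 by 1035 bases on the opposite strand. TBC1D17 had 206 and 177 reads in untreated cells, 211 in BOR 1 and 347 in BOR 2.

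In RPKM, the order of the levels in untreated cells was SESN2 at 7.06 ± 2.25 (SD, n = 2), AKT1S1 at 5.08 ± 0.90, DDIT4 at 5.07 ± 1.41, TSC2 at 3.15 ± 0.12, SESN1 at 2.74 ± 0.94, TSC1 at 2.37 ± 0.67, SESN3 at 2.01 ± 0.85 and DEPTOR at 1.73 ± 0.66. Of the neighbours in this order, only DDIT4 and TSC2 had untreated values that did not overlap. The order depends on the gene model lengths, which were 2058 bases for DDIT4 and 19626 for TSC2. In CPM, TSC2 was the highest of the 8 genes in both untreated libraries (63.4 and 60.2), and DDIT4 (12.5 and 8.37) was above DEPTOR alone. In BOR 2 the RPKM of DDIT4 was 452, that of SESN2 111 and that of AKT1S1 16.4, so the order of DDIT4 and SESN2 was the reverse of that in untreated cells. DDIT4 also led in RPKM in VEM, at 53.7 against 20.1 for SESN2, and in VEM+BOR, at 35.7 against 21.2. In CPM the VEM+BOR values of DDIT4 and SESN2 were 73.6 and 73.3. DDIT4 alone took 60.8% of the reads of the 8 genes in BOR 2, 33.7% in VEM, 23.5% in VEM+BOR and 4.59% to 5.38% in the other 3 libraries.

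All 8 genes passed the filter of a mean normalised value of at least 10 in every comparison. DDIT4 alone among them passed the threshold, an adjusted p under 0.05 in limma, in VEM and in VEM+BOR. Of all genes tested in VEM, 0.0382% passed as higher and 0.00637% as lower (0.0446% in all), and in VEM+BOR 0.173% and 0.0192% (0.192% in all). With edgeR on recovered reads in VEM+BOR, DDIT4 and SESN2 both passed, beside 85 of 15606 genes. Nothing is read from the members' counts because the choice of the genes used these comparisons. In BOR no gene passed (0.0% of 15382 tested in limma, with 38 at an unadjusted p under 0.05, and 0 in edgeR with 155). In BOR 2 members lay with both BOR libraries above both untreated libraries, SESN1 and SESN2, where 11.7% of all genes did, and none lay below, where 8.24% did. In VEM 3 lay above (30.3% of all genes) and 2 below (27.6%), and in VEM+BOR 3 lay above (30.1%) and 1 below (27.9%). Taken singly, BOR 1 had 3 of the 8 above both untreated libraries (29.9% of all genes) and 1 below (20.7%), while BOR 2 had 5 above (43.8%) and 1 below (41.7%). In CPM the BOR 2 counts were 4 above and 3 below. Over 2-fold above the untreated mean were none of the 8 in BOR 1 (1.27% of all genes), 3 in BOR 2 (16.4%), 2 in VEM (3.18%) and 2 in VEM+BOR (3.1%). On the shared scale none of the 8 was over 2-fold below it in any library, where 1.4%, 25.5%, 2.13% and 3.05% of all genes were. In CPM, SESN3 in BOR 2 was 8.54 against 27.6 and 14.9 in untreated cells. The median log2 change of the 8 genes was 0.41 in BOR, 0.01 in VEM and 0.10 in VEM+BOR, beside 0.04, 0.00 and 0.01 over all genes tested. The VEM and VEM+BOR comparisons have 1 treated library each, assumed to vary like the untreated pair, and all 3 comparisons share the untreated libraries. A single fit over the 6 libraries, including the spread of the BOR pair, left no gene past the threshold in any comparison, DDIT4 included (limma, with 41, 39 and 82 genes at an unadjusted p under 0.05 in BOR, VEM and VEM+BOR).

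The rest of the mTORC1 pathway was read from lists of named genes. No gene of the mTOR complexes, of the amino acid arm, of the Rag and Ragulator group, of the growth factor and energy arm or of the mTORC1 substrates passed the threshold in any comparison, out of 9, 15, 12, 20 and 18 tested. Of all genes tested, 0.0% passed in BOR, 0.0446% in VEM and 0.192% in VEM+BOR, so nothing is read from these counts. In VEM the median log2 changes of these lists were -0.04, -0.03, 0.03, 0.13 and 0.07, and in VEM+BOR 0.10, -0.07, 0.10, 0.19 and 0.13. MTOR itself was 1830 and 1484 in untreated cells, 1911 in BOR 1, 2106 in BOR 2, 1803 in VEM and 1940 in VEM+BOR. EIF4EBP1, the translation repressor that mTORC1 phosphorylates, was 3414 and 4934 in untreated cells, 3489 in BOR 1, 11353 in BOR 2, 6468 in VEM and 5529 in VEM+BOR. The insulin receptor substrate gene IRS2 was 1573 and 1137 in untreated cells, 1940 in BOR 1, 4291 in BOR 2, 2611 in VEM and 2525 in VEM+BOR, with all 4 treated libraries above both untreated ones. GRB10, an adaptor that mTORC1 phosphorylates, was 1663 and 1651 in untreated cells and 2167, 5019, 2815 and 2548 in BOR 1, BOR 2, VEM and VEM+BOR. EIF4EBP1, IRS2 and GRB10 did not pass the threshold.

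In BOR 2 the pathway lists held genes on both sides. Of 18 mTORC1 substrates and effectors 15 lay above both untreated libraries, where 43.8% of all genes did, and 3 below, where 41.7% did. In BOR 1 it was 7 above (29.9% of all genes) and 4 below (20.7%). Of the other lists in BOR 2, the mTOR complexes had 5 of 9 genes above and 3 below. The amino acid arm had 6 of 15 above and 6 below. The Rag and Ragulator group had 8 of 12 above and 2 below, and the growth factor and energy arm 12 of 20 and 5. LPIN1, a phosphatidate phosphatase, was 2692 in BOR 2 against 686 and 401 in untreated cells, and FLCN, the folliculin gene of the Rag arm, was 1168 against 356 and 342. RICTOR, the scaffold of mTORC2, was 107 in BOR 2 against 533 and 482 in untreated cells. MIOS, a GATOR2 subunit, was 137 in BOR 2 against 314 and 511. BOR 1 did not share these values, with LPIN1 at 651, FLCN at 370, RICTOR at 692 and MIOS at 372.

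Transcription factors known to act on DDIT4 or sestrin genes and lists of their targets were set beside the members. ATF4 was 6534 and 9364 in untreated cells, 8028 in BOR 1, 28493 in BOR 2, 16026 in VEM and 14862 in VEM+BOR. ATF3, a stress-induced factor of the same family, was 40.8 and 55.9 in untreated cells, 49.99 in BOR 1, 6880 in BOR 2, 145 in VEM and 122 in VEM+BOR. DDIT3, which encodes CHOP, was 66.6 and 100 in untreated cells, 103 in BOR 1, 1918 in BOR 2, 187 in VEM and 228 in VEM+BOR. CEBPB was 1116 and 1245 in untreated cells, 1741 in BOR 1, 6863 in BOR 2, 1877 in VEM and 1924 in VEM+BOR. ATF4, ATF3, DDIT3 and CEBPB were above both untreated libraries in BOR 2, VEM and VEM+BOR, and DDIT3 and CEBPB were above both in BOR 1 too. Of all 13 factors on the shared scale, 8 were above both in BOR 2 (43.8% of all genes) and 4 below (41.7%). The counts were 8 above (30.8%) and 2 below (27.3%) in VEM, and 9 (31.4%) and 0 (26.6%) in VEM+BOR. In BOR 1 they were 6 above (29.9%) and 0 below (20.7%). No gene of this list passed the threshold in any comparison, out of 13 tested. Of all genes tested, 0.0% passed in BOR, 0.0446% in VEM and 0.192% in VEM+BOR.

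Of 13 ATF4 target genes tested in each comparison with VEM, 1 passed in VEM and 1 in VEM+BOR, CHAC1 in both cases, beside 0.0446% and 0.192% of all genes, and none passed lower. In VEM 11 lay above both untreated libraries, where 30.3% of all genes did, with a list median log2 change of 1.15. In VEM+BOR 13 did, where 30.1% of all genes did, with a median of 1.26. On the scale shared by all libraries, 14 genes of this list were measured, 13 of them above both untreated libraries in BOR 2 (43.8% of all genes), with a median log2 difference of 1.98, and 4 of them in BOR 1 (29.9%), with a median of 0.08. TRIB3, a pseudokinase induced by ATF4, was 990 and 1415 in untreated cells, 1027 in BOR 1, 22075 in BOR 2, 3290 in VEM and 3404 in VEM+BOR.

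HIF target genes were high in BOR 2 and near the median of all genes in VEM. In BOR 2 all 11 measured HIF targets lay above both untreated libraries, where 43.8% of all genes did. All 11 were also over 2-fold above the untreated mean, where 16.4% of all genes were, with a median log2 difference of 3.94. In BOR 1 the median was 0.06, with 4 above both untreated libraries (29.9% of all genes) and 3 below (20.7%). In VEM the median was 0.13 with 6 above and 2 below both untreated libraries, and in VEM+BOR it was 0.37 with 7 above and 2 below, where 30.8% and 31.4% of all genes lay above and 27.3% and 26.6% below. ADM, the gene of the vasodilator adrenomedullin, was 2.66 and 4.90 in untreated cells, 0.926 in BOR 1, 3833 in BOR 2, 7.37 in VEM and 14.7 in VEM+BOR. ANKRD37 was 61.3 and 106 in untreated cells, 67.6 in BOR 1, 2600 in BOR 2, 62.7 in VEM and 99.1 in VEM+BOR. VEGFA, the endothelial growth factor gene, was higher in VEM too, at 1517 and 1544 in untreated cells, 1886 in BOR 1, 18425 in BOR 2, 2808 in VEM and 3526 in VEM+BOR. HIF1A, the gene of the oxygen-regulated factor itself, was 1340 and 1038 in untreated cells, 1466 in BOR 1, 119 in BOR 2, 879 in VEM and 1316 in VEM+BOR. No HIF target passed the threshold in limma, out of 10 or 11 tested per comparison. Of all genes tested, 0.0% passed in BOR, 0.0446% in VEM and 0.192% in VEM+BOR.

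The p53, FOXO and glucocorticoid receptor target lists also held no gene past the threshold. Of all genes tested, 0.0% passed in BOR, 0.0446% in VEM and 0.192% in VEM+BOR. The median log2 differences of these lists in BOR 1 were 0.08, 0.39 and 0.18, and in BOR 2 0.66, 1.31 and 1.57. In VEM they were 0.14, 0.43 and 0.33, and in VEM+BOR 0.49, 0.64 and 0.29. Of the p53 targets in BOR 2, 9 of 13 were above both untreated libraries (43.8% of all genes) and 4 below (41.7%), and in BOR 1 it was 3 above (29.9%) and 1 below (20.7%). BBC3, the pro-apoptotic gene of PUMA, was 96.8 and 85.3 in untreated cells, 91.7 in BOR 1, 865 in BOR 2, 179 in VEM and 179 in VEM+BOR. CDKN1A, the gene of p21, was 863 and 356 in untreated cells, 651 in BOR 1, 9473 in BOR 2, 1243 in VEM and 1204 in VEM+BOR. Of the FOXO targets 7 of 8 lay above both untreated libraries in each of BOR 2, VEM and VEM+BOR, where 43.8%, 30.8% and 31.4% of all genes did, and 4 of 8 in BOR 1, where 29.9% did. BCL6, a transcriptional repressor, was 154 and 66.7 in untreated cells, 133 in BOR 1, 3061 in BOR 2, 264 in VEM and 321 in VEM+BOR. Of the glucocorticoid receptor targets, TSC22D3 was 720 and 424 in untreated cells, 737 in BOR 1, 7884 in BOR 2, 1134 in VEM and 928 in VEM+BOR, while FKBP5 was 3540 and 3290 in untreated cells, 3922 in BOR 1, 2354 in BOR 2, 3025 in VEM and 2951 in VEM+BOR.

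**Figure D3:**
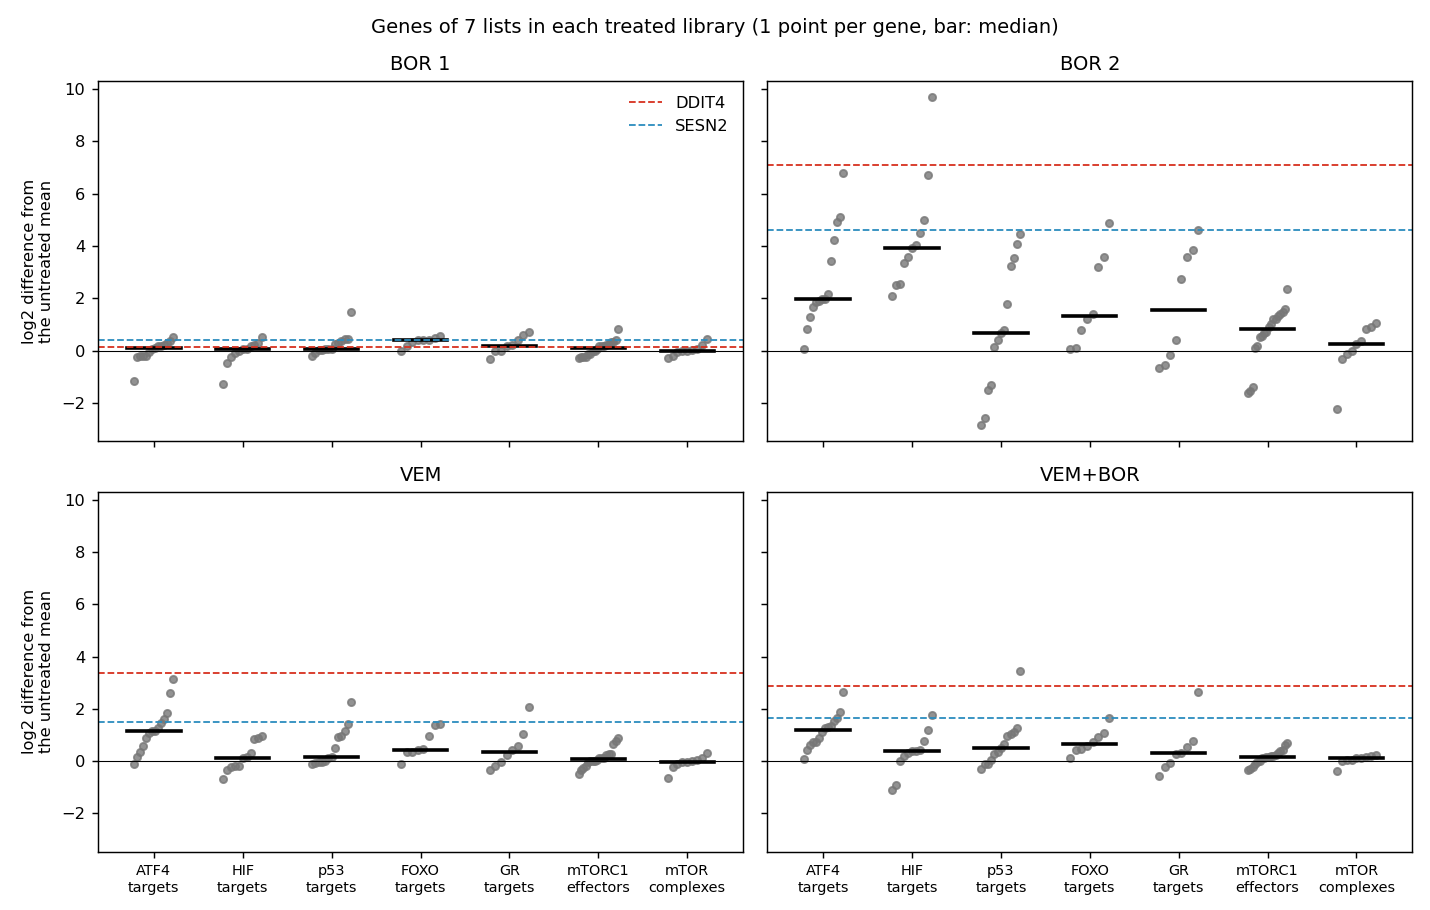
Log2 difference from the untreated mean for each measured gene of 7 lists in the 4 treated libraries, with 1 grey point per gene, a black bar at the list median, and dashed lines at DDIT4 and SESN2 (GR, glucocorticoid receptor). HIF targets sit around 3.94 in BOR 2 and around 0.13 in VEM, while ATF4 targets sit above 0 in BOR 2 (1.98), VEM (1.15) and VEM+BOR (1.19).

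The genes most like DDIT4 and SESN2 were sought among 5397 protein-coding genes by Pearson r of log2(CPM + 1) over the 6 libraries. These libraries share the treatments, and BOR 2 weighs heavily in each r, which is a description with no p. DDIT4 was most like KDM6B, a histone demethylase gene (r = 0.995), LMO4 (0.993), EGR1, an immediate early transcription factor gene (0.993), GPT2, a mitochondrial alanine aminotransferase gene (0.991) and IFNGR2, an interferon gamma receptor gene (0.990). SESN2 was most like HBEGF, a growth factor gene (0.998), BBC3 (0.995), MSX1 (0.994), TNFAIP3, a feedback inhibitor of NF-kB (0.994) and VEGFA (0.993). Over the 5 libraries without BOR 2 these r lay between 0.970 for IFNGR2 and 0.999 for HBEGF. Between DDIT4 and SESN2 the r was 0.984 over 6 libraries and 0.962 without BOR 2. EGR1 came nearest to DDIT4 in range, at 13.2 and 6.10 CPM in untreated cells, 6.84 in BOR 1, 643 in BOR 2, 76.6 in VEM and 40.7 in VEM+BOR. DDIT4 itself was 12.5, 8.37, 11.5, 931, 111 and 73.6 CPM in the same order.

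**Figure D4:**
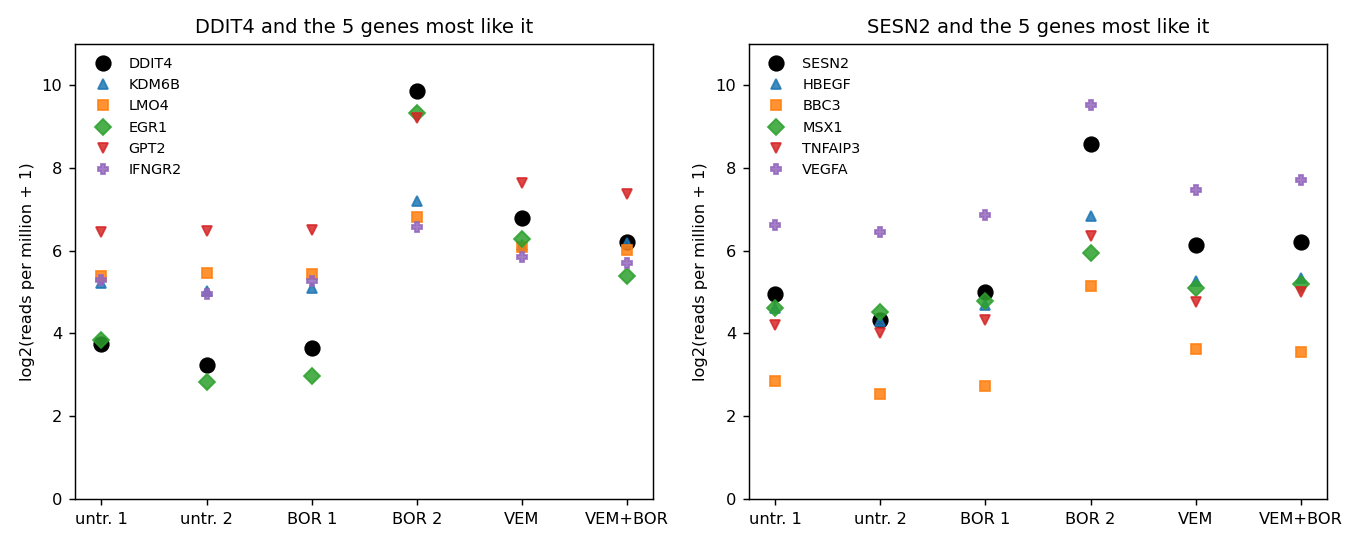
Log2(CPM + 1) in the 6 libraries for DDIT4 and the 5 genes most like it (left) and for SESN2 and the 5 genes most like it (right), with 1 point per gene and library. For each gene VEM and VEM+BOR lie above untreated 1, untreated 2 and BOR 1, and BOR 2 lies highest. EGR1 is at 13.2 CPM in untreated 1, against 6.10 in untreated 2 and 6.84 in BOR 1.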

How the data were processed

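RNA of SKM-1 cells was measured in 6 libraries, grouped by the treatment labels. Replicates were numbered by accession, which pairs none of them. The submitters' processing notes name edgeR (3.22.5), DESeq2 (1.20.0), featureCounts (1.5.0-p3), HISAT2 (2.0.5) and CASAVA without their roles. The genome build was not given in the sources used here. Each of the 3 tables the authors deposited, 1 per treated group, holds a normalised signal per gene and library, which the values show to be reads divided by 1 factor per library and table. The deposited log2 fold changes and p-values of the authors are used only where named. In each column 100% of signal values were whole multiples of 1 step within 0.001, which gave the reads, and untreated reads were equal across tables. The step was 0.991 for VEM and 0.984 for VEM+BOR, both near 1. The recovery was treated as unsure for VEM, where edgeR was not run.

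For levels, 23519 genes of all 6 libraries were put on a shared scale with median-of-ratios factors, or given as CPM. In CPM the median of all genes in BOR 2 lay -0.45 (log2) from untreated, against 0.04 on the shared scale, whose factor for BOR 2 was 0.740. Changes were fitted in each table on log2(value + 1) by limma (3.58.1, R 4.3.3) with its trend option, and p-values were adjusted by Benjamini-Hochberg over all genes tested. This scale understates changes of low genes. Residual degrees of freedom were 2 for BOR and 1 for VEM and VEM+BOR. The fit was tested on simulated data in which every library varied with the spread of the untreated pair. That test does not cover the disagreement between the BOR libraries. Alternatives were other pseudocounts, no filter, TMM scaling, 1 fit of all 6 libraries, leaving out a library, and edgeR (4.0.16) on recovered reads, not run for VEM.

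Members and lists were chosen with earlier results of these data known. Named genes are the 8 members, up to 4 genes per list with the largest mean change (at least 1 CPM on average), list genes past the threshold, and the 5 genes most like DDIT4 and SESN2 (mean of at least 5 CPM, log2 range of at least 1). HIF1A, FKBP5 and the genes overlapping members were named after their values were seen. RefSeq promoter windows matched 6 of 8 members. Some overlaps between genes are not reported here.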

Additional observations from a re-analysis of the deposited data

How the results depend on the processing

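Counts of genes past the threshold depended on the processing. In VEM, 7 genes passed, against 0 without the filter on low values, 0 with all 6 libraries in 1 fit and 17 in that fit without BOR 1. In VEM+BOR, 30 passed, against 51 with TMM scaling, 85 with edgeR on recovered reads, 0 without the filter, 0 with all 6 libraries in 1 fit and 50 in that fit without BOR 1. The fits that leave out a BOR library from the joint fit were chosen after seeing the data. In BOR, leaving out 1 library in turn gave 0 to 4008 genes, the 4008 being without BOR 1. Leaving out either untreated library gave 0 in VEM and 0 in VEM+BOR, from a fit in which the lone samples are assumed to vary like the BOR pair. Over the alternatives the log2 change of DDIT4 ranged from 3.18 to 3.56 in VEM and from 2.68 to 3.05 in VEM+BOR, and that of SESN2 from 1.26 to 1.72 and from 1.42 to 1.88. The log2 changes of DDIT4 and SESN2 kept their sign in all alternatives, and 16 of 232 member values changed sign, all among the other 6 genes. DEPTOR, with 58 to 110 reads per library, has the least precision. No paired analysis was possible because the labels give no replicate numbers shared between groups.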
